A study of Mus musculus with 8 samples.

Results

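Nuclei that carried the granule neuron transcription factor Prox1 together with Slc17a7, the vesicular glutamate transporter of cortical and hippocampal excitatory neurons, were picked out of single-nucleus RNA-seq of mouse brain by 4 cut-offs. A nucleus had to be annotated as a neuron by the authors, hold at least 2 unique molecular identifiers (UMIs, one per captured RNA molecule) of Slc17a7, at most 1 UMI of the inhibitory neuron genes Gad1 and Gad2 combined, and at least 3 UMIs of Prox1. This left 82 nuclei of 61949, and 82 of the 17395 neurons that passed the Slc17a7 and Gad cut-offs (0.471%, Wilson 95% interval 0.38 to 0.585). They are called Prox1 nuclei below, and the 17313 remaining nuclei of that class are called other Slc17a7 neurons.

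The 8 libraries came from brain hemispheres of 6-month-old C57BL6/J mice, from which cerebellum and olfactory bulb had been removed. Each of the 4 genotypes had 2 libraries. WT mice carried neither change, Cnp-/- mice lacked the myelin gene Cnp, 5xFAD mice carried familial Alzheimer's disease transgenes, mutant human App among them, driven by the neuronal Thy1 promoter, and Cnp-/-;5xFAD mice carried both changes. Cnp is deleted constitutively in this line. The study's reporting summary gives pools of 2 animals per replicate for single-cell work, while the methods do not state it for these libraries, and p-values measure the spread between libraries. The methods state that both sexes were used over the study. The reporting summary gives the Cnp-/- crosses as female, and the data go against that statement. In other Slc17a7 neurons of the 8 libraries the Y-linked genes Uty (117 to 137 CPM), Ddx3y (38.9 to 47 CPM) and Eif2s3y (33.7 to 167 CPM) were present throughout, while Xist, the RNA of the inactive X chromosome, was at 0.262 to 0.693 CPM.

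Dentate granule neurons are the principal excitatory cells of the dentate gyrus of the hippocampus. They receive input from the entorhinal cortex, send mossy fibres to CA3 pyramidal neurons, and are renewed at a low rate in adult rodents. Prox1 sets and maintains their identity, but it is also made by caudal ganglionic eminence interneurons and by cells of the oligodendrocyte lineage. In these libraries at least 3 Prox1 UMIs were found in 136 of 5612 mature oligodendrocytes (2.42%), in 231 of 1422 nuclei of the Adarb2-rich inhibitory cluster 18 (16.2%) and in 1 of 4810 astrocytes. Pooled over nuclei, Prox1 stood at 258 counts per 1000000 UMIs (CPM) in mature oligodendrocytes, 158 CPM in cluster 18 and 8.67 CPM in astrocytes. The gene lies on the minus strand of chromosome 1 (mm10, chr1:190118035-190170714), and Slc17a7 on the plus strand of chromosome 7 (chr7:45163949-45176142), both protein-coding in GENCODE.

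The nuclei were chosen by their measured UMIs of Slc17a7, Gad1, Gad2 and Prox1, so these values are given as a description with no test. Prox1 UMIs per nucleus ran from 3 to 9 with a median of 4, and Slc17a7 UMIs from 2 to 16 with a median of 5. Just inside the Prox1 cut-off stood 36 nuclei with 3 UMIs and 16 with 4. Just outside stood 82 nuclei with 2 UMIs and 328 with 1, while 16903 of the Slc17a7 neurons had none. Of 737 neurons with at least 3 Prox1 UMIs, 337 also had at least 2 Slc17a7 UMIs, and 255 of those were removed because they held more than 1 Gad UMI. The Gad cut-off therefore discarded most of the nuclei with both Prox1 and Slc17a7.

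Libraries were alike in size, with 6801 to 8824 nuclei and 68905044 to 82399061 UMIs per library. Depth per nucleus was less alike. The median other Slc17a7 neuron held from 8801.5 UMIs in Cnp-/- replicate 2 to 13050 UMIs in 5xFAD replicate 1. The Prox1 nuclei were not spread alike. WT replicate 1 held 1, WT replicate 2 held 21, Cnp-/- replicate 1 held 11 and Cnp-/- replicate 2 held 3. 5xFAD replicate 1 held 32, 5xFAD replicate 2 held 1, Cnp-/-;5xFAD replicate 1 held 3 and Cnp-/-;5xFAD replicate 2 held 10. WT replicate 2 and 5xFAD replicate 1 stand apart, and each was paired with a library of the same genotype that gave a single nucleus. Summed UMIs of the Prox1 nuclei ranged from 19535 to 1012907 per library, so that 1 UMI was worth 51.2 CPM in WT replicate 1 and 0.987 CPM in 5xFAD replicate 1. A level of 0 UMIs allowed up to 154 CPM in the first and 2.96 CPM in the second (3 counts, counting error only). No Prox1 nucleus had a cell barcode that also occurred in another library, against 909 such nuclei in all. As a check of the genotypes, Cnp in mature oligodendrocytes was 219 to 321 CPM in the libraries with Cnp and 23.1 to 32.8 CPM in the Cnp-/- libraries.

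**Figure D1:**
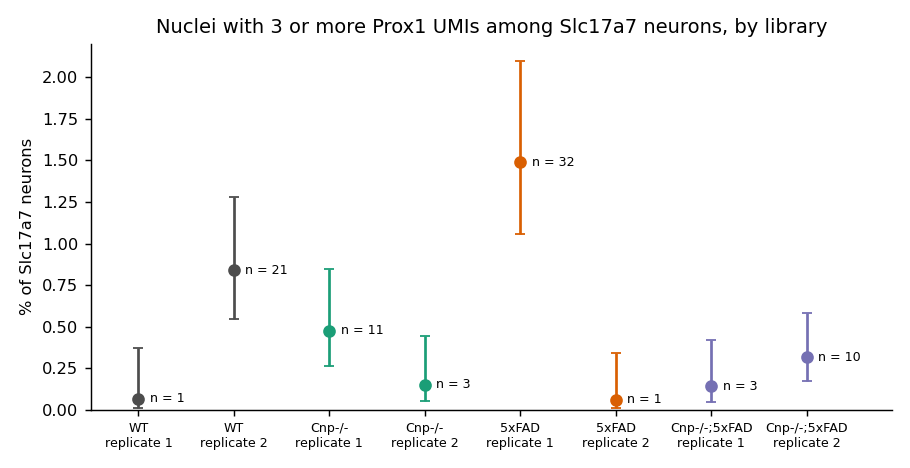
Share of Slc17a7 neurons that held at least 3 Prox1 UMIs (vertical axis, percent) in each of the 8 libraries (horizontal axis), with the Wilson 95% interval as bars and the number of nuclei beside each point. 5xFAD replicate 1 (32 nuclei) and WT replicate 2 (21 nuclei) lie above the other library of their genotype, which held 1 nucleus each.

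The data did not bear out a dentate granule neuron label for the set as a whole. Its most specific markers were low. Pooled over the 82 nuclei, C1ql2 (a secreted synaptic organiser of mossy fibres) stood at 3.17 CPM, Dsp (desmoplakin) at 4.23 CPM, Tdo2 (tryptophan dioxygenase) at 2.11 CPM and Lct (lactase) at 1.76 CPM, each with 12 UMIs or fewer. In other Slc17a7 neurons the 4 stood at 0.0887, 0.11, 0.388 and 0.958 CPM. A UMI of C1ql2 was found in 7.32% of the Prox1 nuclei and one of Dsp in 8.54%, against 0.104% and 0.133% of other Slc17a7 neurons, at median depths of 29515 and 11368 UMIs. Both genes had UMIs in the Prox1 nuclei of only 2 of 8 libraries. Outside WT replicate 2 and 5xFAD replicate 1, however, a count of 0 allowed 7.74 CPM or more, above the pooled 3.17 and 4.23 CPM. A lack of UMIs there cannot be told from the pooled level. Calb1, the calcium buffer calbindin, was at 32.4 CPM against 40.6 CPM in other Slc17a7 neurons, and Bcl11b at 96.6 against 109 CPM. Over the neuronal clusters of the deposited annotation the highest pooled level of C1ql2 was 1.16 CPM, in cluster 25, and that of Dsp 2.96 CPM, in cluster 40.

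The 16 genes of the granule neuron list summed to 2330 CPM pooled, against 1181 CPM in other Slc17a7 neurons. Per library the sum ranged from 773 to 3434 CPM against 1117 to 1270 CPM and was higher in 6 of 8 libraries. Maml2, a Notch co-activator, was at 344 CPM pooled against 36.4 CPM, Dock10, a guanine nucleotide exchange factor, at 463 against 50.2 CPM, and Glis3, a zinc finger factor, at 155 against 50.6 CPM. Zbtb20, a repressor that specifies hippocampal projection neurons and is on the list of transcription factors, was at 992 against 131 CPM. These 4 genes are not particular to granule neurons in these libraries. Dock10 stood at 4083 CPM in mature oligodendrocytes, and Maml2 at 1407, Glis3 at 637 and Zbtb20 at 3298 CPM in astrocytes.

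Levels of other cell types' genes moved with the set. The 8 oligodendrocyte markers, among them Mbp, Mobp and Mog, summed to between 198 and 2170 CPM per library in Prox1 nuclei, against 97.1 to 175 CPM in other Slc17a7 neurons, and were higher in 8 of 8 libraries. More than 2 UMIs of them were present in 55 of the 82 nuclei (67.1%), against 12.8% of other Slc17a7 neurons. The 8 GABAergic markers summed to 140 to 4095 CPM against 80.5 to 299 CPM and were higher in 6 of 8 libraries. Most of that sum was Adarb2, a relative of RNA-editing enzymes that marks caudal ganglionic eminence interneurons, at 637 against 96.1 CPM pooled. Reln was at 226 against 88.3 CPM pooled, but 514 of its 642 UMIs came from WT replicate 2. Without that library it was at 65.2 CPM, and it was higher in 3 of 8 libraries. Slc32a1 (1.76 CPM), Sst (0.352 CPM) and Pvalb (2.11 CPM) were near 0 and the cut-off on Gad1 and Gad2 kept those low by construction. The 6 astrocyte markers summed to 227 to 933 CPM against 195 to 294 CPM, and the 6 microglia markers to 51.2 to 162 CPM against 45.4 to 64.5 CPM. More than 2 UMIs of the oligodendrocyte markers or of Adarb2 were found in 77 of the 82 nuclei, and 5 nuclei had neither. The comparison of classes below is also given for nuclei with at most 2 oligodendrocyte UMIs, and the part of the other cell types in it was not tested.

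Depth moved with the set as well. The median Prox1 nucleus held 29515 UMIs and the median other Slc17a7 neuron 11368. Of Slc17a7 neurons with fewer than 5000 UMIs 0.246% (2 of 814) were Prox1 nuclei, above the 2 bins that follow. Of those with 5000 to 10000 UMIs 0.0657% were, of those with 10000 to 20000 UMIs 0.205%, of those with 20000 to 40000 UMIs 1.46% and of those with 40000 or more 6.55%. The share also followed oligodendrocyte UMIs at a given depth. From 20000 to 40000 UMIs it was 2.63% (22 of 835) in neurons with more than 2 oligodendrocyte UMIs and 0.769% (11 of 1430) in the rest. At 40000 UMIs or more it was 8.7% (26 of 299) and 0.885% (1 of 113). After each neuron was thinned to 5000 UMIs, 4 of 8170 Slc17a7 neurons had 3 or more Prox1 UMIs, with 8202 shallower neurons left out.

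**Figure D2:**
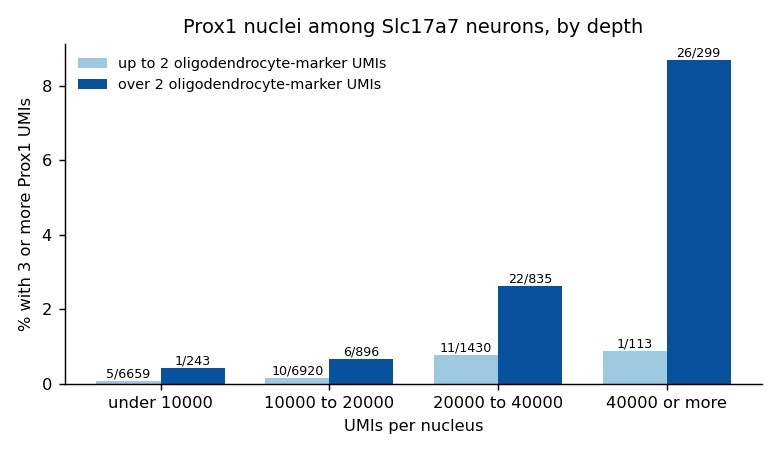
Percentage of Slc17a7 neurons with at least 3 Prox1 UMIs (vertical axis) by total UMIs per nucleus (horizontal axis), in neurons with up to 2 (light) and over 2 (dark) UMIs of the 8 oligodendrocyte markers, with the counts above each bar. The share rises from bin to bin and reaches 8.7% in the deepest nuclei with over 2 oligodendrocyte UMIs.

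By the authors' clusters the 82 nuclei fell into 3 sets. Cluster 0 held 49, from all 8 libraries. This is the largest neuronal cluster, with 6859 nuclei, of which 2321 were Slc17a7 neurons by the cut-offs, at a median of 21741 UMIs. Cluster 25 held 16, all from WT replicate 2, the library that gave 717 of the 864 nuclei of that cluster. The remaining 17 lay in clusters 14 (5), 21 (4), 6 (3), 1 (2), 13 (2) and 34 (1), and 11 of them came from 5xFAD replicate 1. Because the clusters were drawn from the same nuclei and genes, differences between these sets are given as values with no test.

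The 17 nuclei outside clusters 0 and 25 had, of the 3 sets, the highest summed level of granule neuron markers and the lowest of oligodendrocyte markers. The latter stood at 86.3 CPM, against 821 CPM in cluster 0, 2610 CPM in cluster 25 and 134 CPM in other Slc17a7 neurons. The 16 granule neuron markers summed to 4175 CPM in them, against 1992 CPM in the 49 nuclei of cluster 0, 2091 CPM in the 16 of cluster 25 and 1181 CPM in other Slc17a7 neurons. Mature oligodendrocytes stood higher, at 4942 CPM. The CA3 and mossy cell markers were also highest in the 17, at 409 and 108 CPM, against 179 and 80.7 CPM in other Slc17a7 neurons. Glis3 stood at 357 CPM, Trpc6 (a cation channel of dentate granule neurons) at 266 CPM, Rfx3 (a ciliary transcription factor) at 993 CPM, Ahcyl2 at 858 CPM and Calb1 at 91.2 CPM. In cluster 0 the same genes stood at 144, 111, 406, 419 and 31.6 CPM. Over all neurons of cluster 1, from which 2 of the 17 came, Trpc6 was at 217 CPM and Calb1 at 105 CPM. Over those of clusters 14, 21, 6, 13 and 34 they were lower, at 37.3 to 62.7 CPM and 16.1 to 58.8 CPM. A high Calb1 level is therefore not particular to the 17. Dsp was at 17.3 CPM, found in 17.6% of the 17 nuclei, and C1ql2 at 2.46 CPM in 5.88%. Mbp, the myelin basic protein gene, was at 81.3 CPM against 88 CPM in other Slc17a7 neurons. Adarb2 was nevertheless at 816 CPM and present in all 17.

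The 16 cluster 25 nuclei had a different make-up. Mbp stood at 853 CPM, Apoe (the main lipid carrier of astrocytes) at 568 CPM and the astrocyte glutamate transporter Slc1a3 at 335 CPM. Reln, an extracellular guidance protein, was at 688 CPM and Neurod1, a differentiation factor of granule neurons, at 69 CPM. Gabra6, a GABA-A receptor subunit best known from cerebellar granule neurons, was at 328 CPM, against 1.17 CPM in the cluster 0 nuclei and no UMI in the 17 others. The other Slc17a7 neurons of cluster 25 had Gabra6 at 224 CPM and Mbp at 323 CPM, against 4.16 and 88 CPM in other Slc17a7 neurons of all clusters. In the 16 Prox1 nuclei of cluster 25 Calb1 was at 1.38 CPM and Trpc6 at 29 CPM.

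**Figure D3:**
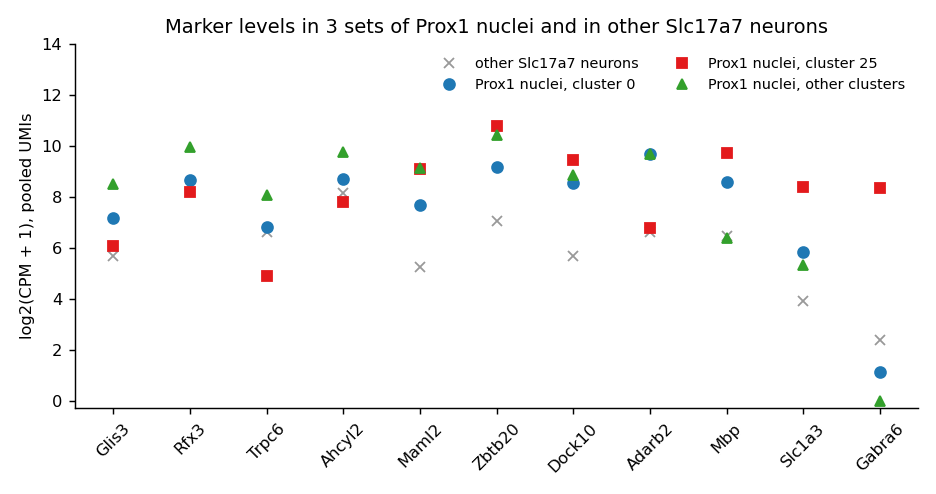
Pooled level of 11 genes (vertical axis, log2 of CPM + 1) in other Slc17a7 neurons (grey crosses) and in the Prox1 nuclei of cluster 0 (blue circles, 49), cluster 25 (red squares, 16) and other clusters (green triangles, 17). The green triangles are highest for Glis3, Rfx3, Trpc6 and Ahcyl2 and at 0 for Gabra6, whereas the red squares are highest for Mbp, Slc1a3 and Gabra6.

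The first comparison asked which genes differed between Prox1 nuclei and other Slc17a7 neurons of the same library. Counts were summed per library and class (16 profiles) and tested with edgeR's quasi-likelihood test with library as a block, with the rule genes left out. Of 14919 genes tested 1280 passed an adjusted p of 0.05 (8.58%), 794 higher in Prox1 nuclei (5.32%) and 486 lower (3.26%). The median log2 fold change over all genes was -0.10. With 5 other nuclei per Prox1 nucleus, the nearest in UMIs within its library and cluster, 127 of 6520 genes passed, 110 higher and 17 lower, and 122 of the 127 were among the 1280. These are called matched nuclei below, but depth was not matched in WT replicate 2, where their median was 23409 UMIs against 36619 in the Prox1 nuclei. In the other 7 libraries the medians lay close together. Without WT replicate 2 the count was 692, with 3.57% of all genes higher and 1.11% lower. In nuclei with at most 2 oligodendrocyte UMIs, which only 4 libraries supplied (27 Prox1 nuclei), it was 386.

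Genes of the oligodendrocyte lineage were among those that rose most. St18, a zinc finger factor of that lineage, ranged from 51.2 to 777 CPM with a median of 245 CPM in the Prox1 nuclei of the 8 libraries, and from 10 to 48.4 CPM with a median of 27.8 CPM in other Slc17a7 neurons. The classes did not overlap, though the lowest value of the Prox1 nuclei, 51.2 CPM, was 1 UMI in WT replicate 1. The log2 fold change was 3.19 ± 0.18 (SE, n = 8 libraries, edgeR adjusted p = 1.4e-24). Mobp, a myelin protein (chr9:120149707-120181484), ranged from 18 to 216 CPM against 1.9 to 13.6 CPM, with a log2 fold change of 3.08 ± 0.25 (edgeR adjusted p = 1.9e-16). Mbp ranged from 144 to 739 CPM against 64.2 to 100.5 CPM and was higher in 8 of 8 libraries. Its log2 fold change was 2.04 ± 0.19, and against matched nuclei it was 1.33 ± 0.20 (edgeR adjusted p = 0.00021). All 7 oligodendrocyte markers that could be tested rose, against 5.32% of all genes. All 5 that could be tested against matched nuclei rose there too, against 1.69% of all genes. Their median log2 fold change was 3.08 in the first comparison and 1.35 in the matched one.

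Of the 14919 genes tested 445 (2.98%) were higher in all 8 libraries or lower in all 8. The 12 genes with the largest rise that were higher in 8 of 8 libraries were Hepacam, St18, Mobp, Gab1, Mertk, Ttyh2, Tcf7l2, Sytl5, Dock10, Il18, Gsap and Hapln2, with log2 fold changes from 2.61 to 3.25. Hapln2 is a link protein of nodes of Ranvier, Hepacam a glial adhesion protein, Mertk a phagocytic receptor and Tcf7l2 a Wnt effector of differentiating oligodendrocytes and thalamic neurons. Hepacam ranged from 22.7 to 154 CPM against 2.12 to 8.3 CPM and Gab1, a signalling adaptor, from 43.4 to 146 CPM against 4.07 to 11.8 CPM. Each of the 12 was more than 5 times as high in mature oligodendrocytes, astrocytes or microglia as in other Slc17a7 neurons. The share of all genes of which this holds was not counted. Sytl5, Il18 and Gsap rested on 27, 78 and 78 UMIs in all Prox1 nuclei together.

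The granule neuron list had 3 of its 12 tested members higher (25%, against 5.32% of all genes) and none lower (against 3.26%), with a median log2 fold change of 0.08 against -0.10 over all genes. Dock10 ranged from 126 to 598 CPM against 34.6 to 63 CPM and did not overlap (log2 fold change 2.71 ± 0.18, edgeR adjusted p = 6.2e-21). Maml2 ranged from 19.7 to 516 CPM, with a median of 182 CPM, against 22 to 61.7 CPM and was higher in 7 of 8 libraries (2.34 ± 0.23, edgeR adjusted p = 6.1e-13). Glis3 ranged from 0 to 307 CPM against 33.8 to 78.3 CPM and was higher in 6 of 8 libraries (1.08 ± 0.22, edgeR adjusted p = 2e-04). Glis3 was below other Slc17a7 neurons in 5xFAD replicate 2 and Cnp-/-;5xFAD replicate 1, and Maml2 in Cnp-/- replicate 2, libraries with 1, 3 and 3 Prox1 nuclei. Stxbp6 (0.08 ± 0.21), Rfx3 (-0.06 ± 0.19), Ahcyl2 (0.09 ± 0.18), Trpc6 (-0.29 ± 0.21), Calb1 (-0.50 ± 0.24), Plk5 (0.18 ± 0.30), Fam163b (-0.05 ± 0.26), Npnt (0.08 ± 0.39) and Bcl11b (-0.40 ± 0.19) did not pass.

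All 3 genes also passed against matched nuclei, where Glis3 stood at 1.20 ± 0.22, Maml2 at 1.43 ± 0.31 and Dock10 at 1.74 ± 0.19. They passed as well in nuclei with at most 2 oligodendrocyte UMIs, a comparison added after the data were seen. There 5 of 13 tested members of the list rose, against 1.42% of all 14966 genes tested, and none fell. Maml2 was at 3.71 ± 0.22, Dock10 at 3.19 ± 0.22, Glis3 at 1.99 ± 0.23, Ahcyl2 at 0.97 ± 0.20 and Rfx3 at 0.71 ± 0.21 (edgeR adjusted p = 0.025 for the last). Ahcyl2 and Rfx3 had not passed with all Prox1 nuclei. Trpc6 (0.58 ± 0.23) and Calb1 (0.41 ± 0.31) did not pass in those nuclei, and C1ql2 and Dsp were too low to be tested.

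Among transcription factors, 2 of 23 tested rose (8.7%, against 5.32% of all genes) and 4 fell (17.4%, against 3.26%). Against matched nuclei 1 of 19 rose and 0 fell, where 1.69% of all genes rose and 0.26% fell. Without WT replicate 2, 1 of 22 rose and 3 fell, where 3.57% of all genes rose and 1.11% fell. Zbtb20 (chr16:42875881-43642602) ranged from 72 to 1611 CPM against 65.8 to 228 CPM and was higher in 7 of 8 libraries (1.89 ± 0.21, edgeR adjusted p = 3.1e-11). It passed against matched nuclei (1.10 ± 0.22) and in nuclei with at most 2 oligodendrocyte UMIs (2.56 ± 0.21). Id2, an inhibitor of differentiation factors, rose on 7.4 CPM pooled against 1.35 CPM. Those that fell included Mef2c and Cux2. Cux2, of upper cortical layers, ranged from 41.3 to 256 CPM against 174 to 268 CPM (-0.79 ± 0.18, edgeR adjusted p = 0.0014). It did not pass against matched nuclei (edgeR adjusted p = 0.44). Neurod1 did not pass (1.25 ± 0.62, edgeR adjusted p = 0.24).

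Of 6 upper cortical layer markers 2 fell (Cux2 and Lamp5) and of 6 CA1 markers 2 fell, Mpped1 among them, while none of 8 deep layer and 3 CA3 markers passed. Of all genes 3.26% fell. None of the 3 upper layer and 3 CA1 markers that could be tested against matched nuclei passed there, where 0.26% of all genes fell. The CA1 markers that fell were 1 without 5xFAD replicate 1 and 0 without WT replicate 2, where Cux2 and Lamp5 still passed. Lamp5, a lysosomal membrane protein of upper-layer cells, ranged from 0 to 49.2 CPM against 22.4 to 34.7 CPM (-1.81 ± 0.33, edgeR adjusted p = 2.3e-05). Of the 5 immature granule neuron genes tested only Dcx passed, at 50 against 91.2 CPM pooled (-0.81 ± 0.20, edgeR adjusted p = 0.0035), and it did not pass against matched nuclei (edgeR adjusted p = 0.078). Of 2 mossy cell genes tested, Ajap1 fell (-0.80 ± 0.21). Without WT replicate 2 neither Dcx (-0.50 ± 0.18, edgeR adjusted p = 0.094) nor Ajap1 (-0.45 ± 0.18, edgeR adjusted p = 0.17) passed.

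The GABAergic list had 2 testable members. Adarb2 (chr13:8202866-8768747) ranged from 0 to 3993 CPM, with a median of 871 CPM, against 44.9 to 176 CPM, and was higher in 6 of 8 libraries (2.58 ± 0.30, edgeR adjusted p = 1.9e-10). The nucleus of WT replicate 1 was at the top and the nucleus of 5xFAD replicate 2 had none. Against matched nuclei the fold change was 2.36 ± 0.34, and in nuclei with at most 2 oligodendrocyte UMIs it was 4.04 ± 0.21. Reln did not pass. Of 4 microglia markers tested 3 rose, Csf1r and Cx3cr1 among them, against 5.32% of all genes. Cx3cr1 did not pass without WT replicate 2, without cluster 25 or with at most 2 oligodendrocyte UMIs, whereas Csf1r passed in each. Of 3 astrocyte markers Slc1a3 rose (2.42 ± 0.23), which did not pass against matched nuclei (0.65 ± 0.23, edgeR adjusted p = 0.23).

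**Figure D4:**
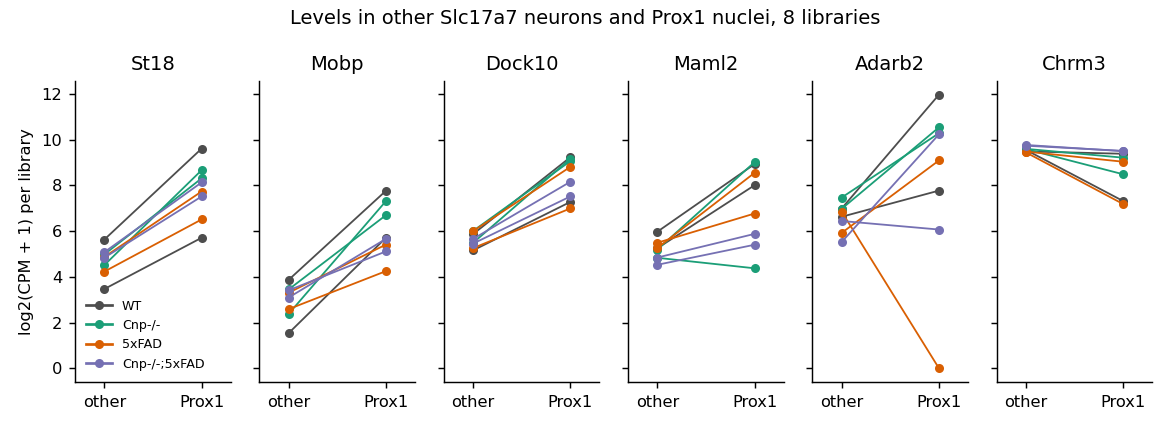
Level of 6 genes (vertical axis, log2 of CPM + 1) in other Slc17a7 neurons and in Prox1 nuclei, with 1 line per library and colour for genotype. All 8 lines rise for St18, Mobp and Dock10 and fall for Chrm3, whereas 7 rise for Maml2 and 6 for Adarb2.

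The lower side was led by genes at low levels. The 12 with the largest fall that were lower in 8 of 8 libraries were Gm34237, Npsr1, Gm38413, Gm16000, Lrriq1, Gm48530, Cfap54, Chrm3, Mei1, Rgs11, 4933424G05Rik and Itpa, with log2 fold changes from -1.73 to -0.95. In all but Chrm3 at least 1 library had 0 UMIs in its Prox1 nuclei. A count of 0 reads as lower whatever the true level, and in WT replicate 1 it allowed up to 154 CPM. For those genes agreement over 8 libraries therefore adds little. Chrm3, a muscarinic acetylcholine receptor, ranged from 144 to 726 CPM, with a median of 557 CPM, against 693 to 870 CPM, and WT replicate 2 and 5xFAD replicate 2 were the lowest (-1.02 ± 0.20, edgeR adjusted p = 9.2e-05), and it passed against matched nuclei (-0.74 ± 0.17). Npsr1, the neuropeptide S receptor, ranged from 0 to 26.7 CPM against 28.2 to 48 CPM (-1.73 ± 0.32). Cfap54, of motile cilia, ranged from 0 to 59.1 CPM against 68.2 to 89.9 CPM (-1.09 ± 0.20).

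Receptor, channel and calcium handling genes passed at 14.7% to 31.2% per list, against 8.58% of all genes. Against matched nuclei 1 of 18 glutamate receptor, 1 of 11 GABA-A receptor, 1 of 33 ion channel and 0 of 15 calcium handling genes passed. Of all genes 1.95% passed there. Of 22 glutamate receptor genes 2 rose and 3 fell. Grin2c, an NMDA receptor subunit, rose, at 43.7 against 2.79 CPM pooled, and Grik1, a kainate receptor subunit, ranged from 0 to 345 CPM against 39.4 to 88.4 CPM. The AMPA receptor subunit Gria3, the NMDA receptor subunit Grin2b and the metabotropic receptor Grm8 fell. Of the 4 that could be tested against matched nuclei, all but Grin2c, Grm8 alone passed (-0.63 ± 0.17, edgeR adjusted p = 0.047). Of 12 GABA-A receptor genes Gabra3 and Gabrg3 fell, and Gabra3 passed against matched nuclei (-0.62 ± 0.17). Of 34 ion channel genes Kcnip1 rose and 4 fell, Kcnq5 and Cacna1b among them. Kcnq5, an M-current potassium channel, ranged from 587 to 2161 CPM against 1628 to 2331 CPM and passed in both comparisons (-0.97 ± 0.20 and -0.68 ± 0.16). Of 16 calcium handling genes 5 fell, among them Camk2a, which was lower in 8 of 8 libraries (-0.66 ± 0.19), and none passed against matched nuclei. Without WT replicate 2 the genes that fell were 0 of the glutamate receptor, 0 of the GABA-A receptor, 2 of the ion channel and 1 of the calcium handling genes, the calcium pump gene Atp2b1, and Camk2a did not pass (-0.44 ± 0.18, edgeR adjusted p = 0.16). Without 5xFAD replicate 1 they were 2, 1, 3 and 4. Of all genes, 1.11% fell without WT replicate 2 and 2.19% without 5xFAD replicate 1, against 3.26% with all 8 libraries.

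Of 19 activity-regulated genes Jun rose and Arc, Egr4, Nr4a1, Npas4 and Homer1 fell (26.3%, against 3.26% of all genes). Nr4a1, an orphan nuclear receptor induced by firing, ranged from 0 to 60.7 CPM against 41.9 to 74 CPM and was lower in 8 of 8 libraries (-0.82 ± 0.20, edgeR adjusted p = 0.003). That agreement takes in a level of 0, which reads as lower whatever the true level. Without 5xFAD replicate 1 Jun alone of the list passed, without WT replicate 2 Nr4a1 alone, and none of the 4 tested against matched nuclei passed. Of 31 axon guidance genes 2 rose (6.45%) and 9 fell (29%, against 3.26% of all genes). Against matched nuclei 1 of 26 rose and 0 fell, where 1.69% of all genes rose and 0.26% fell. Without WT replicate 2, 2 guidance genes rose and 3 fell, where 3.57% of all genes rose and 1.11% fell. Sema5a, a semaphorin with a known role in granule neuron synapses, ranged from 0 to 163 CPM against 11.2 to 29 CPM, was higher in 5 of 8 libraries and passed in both comparisons (1.71 ± 0.23 and 1.42 ± 0.25). Of 18 amyloid pathway genes Apoe rose and Thy1 fell (11.1%, against 8.58% of all genes). Of the 12 tested against matched nuclei Bin1 rose (0.55 ± 0.13, edgeR adjusted p = 0.021) and Thy1 fell (-1.07 ± 0.22, edgeR adjusted p = 0.0065). In nuclei with at most 2 oligodendrocyte UMIs none of 17 passed. WT replicate 2 gave 412 of the 452 UMIs of Apoe (471 CPM against at most 41.7 CPM in the other libraries), Apoe was higher in 4 of 8 libraries, and it passed also without that library (3.36 ± 0.36, edgeR adjusted p = 4e-18). None of 7 stress response genes passed. Of 10 neurotrophin and Fgf genes none passed, and of 6 neuropeptide genes Scg2 rose, which was too low to be tested without WT replicate 2 or without 5xFAD replicate 1. Of 5 thalamic markers Tcf7l2 and Prkcd rose, against 5.32% of all genes. None of the 3 striatal genes passed.

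**Figure D5:**
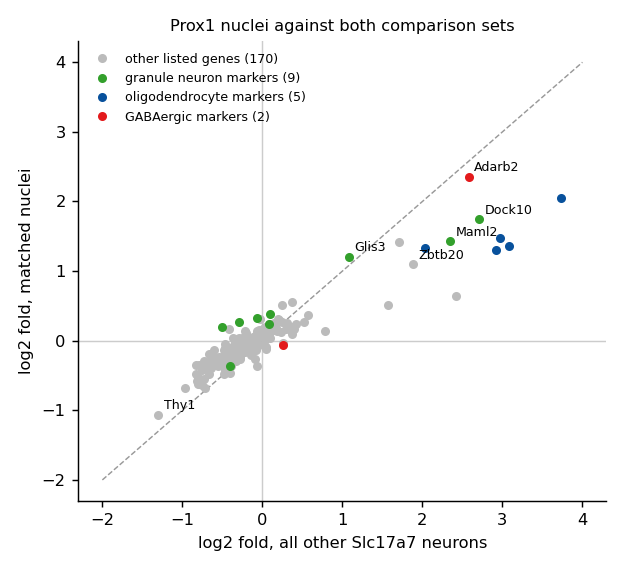
Log2 fold change of Prox1 nuclei against all other Slc17a7 neurons (horizontal axis) and against matched nuclei (vertical axis) for the 186 listed genes tested in both, with the dashed line at equal values. Of these, 153 lie nearer to 0 in the matched comparison, and Adarb2 and Glis3 lie near or above the dashed line.

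The second comparison asked whether the share of Prox1 nuclei differed with genotype. With Cnp lost the share of Slc17a7 neurons was 0.475%, 0.151%, 0.143% and 0.317% in Cnp-/- replicates 1 and 2 and Cnp-/-;5xFAD replicates 1 and 2. With Cnp present it was 0.0656%, 0.838%, 1.49% and 0.0606% in WT replicates 1 and 2 and 5xFAD replicates 1 and 2. The libraries with Cnp spanned those without. The means were 0.271% ± 0.158 (SD, n = 4) and 0.614% ± 0.689 (SD, n = 4), a difference of -0.342 percentage points that was within the spread (two-sided exact permutation p = 0.429, adjusted over both comparisons 0.857). Leaving out 5xFAD replicate 1 brought the difference to -0.0501 percentage points. Thinning each neuron to 5000 UMIs, which left 4 nuclei over the Prox1 cut-off, brought it to -0.0113 (two-sided exact permutation p = 0.83). The mean shares themselves then fell to 0.0383% with Cnp lost and 0.0496% with Cnp present. The thinned difference is thus on a smaller scale than the first.

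For 5xFAD the same libraries gave 0.503% ± 0.667 (SD, n = 4) with the transgenes and 0.382% ± 0.351 (SD, n = 4) without, a difference of 0.12 percentage points (two-sided exact permutation p = 0.857, adjusted 0.857). The smallest p this design allows is 0.0286. Leaving out 5xFAD replicate 1 turned the direction, to -0.209 percentage points, and leaving out WT replicate 1 brought the difference to 0.0147. With each neuron thinned to 5000 UMIs it was 0.00207, on mean shares of 0.045% with the transgenes and 0.0429% without. A smaller share of such nuclei and less Prox1 RNA per nucleus cannot be told apart by a cut-off on UMIs.

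The third comparison asked which genes changed in Prox1 nuclei with Cnp loss and with 5xFAD, each averaged over the other change. It rested on 14 Cnp-/-, 13 Cnp-/-;5xFAD, 33 5xFAD and 22 WT nuclei. With Cnp loss 0 of 4845 genes passed edgeR's test (0%), 350 had an unadjusted p under 0.05, and DESeq2 called 0. With 5xFAD 1 of 4845 passed (0.0206%), Cnksr3, a scaffold protein of cell signalling, and 378 had an unadjusted p under 0.05. DESeq2 called 2 other genes and not Cnksr3. For the interaction of both changes 0 of 4845 passed (0%), 329 had an unadjusted p under 0.05, and DESeq2 called 1. Without WT replicate 1, a single nucleus, the 3 counts were 41, 58 and 25.

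Cnksr3 was at 0, 131, 102 and 29.5 CPM in WT replicates 1 and 2 and Cnp-/- replicates 1 and 2, and at 6.91, 0, 0 and 7.74 CPM in 5xFAD replicates 1 and 2 and Cnp-/-;5xFAD replicates 1 and 2. The groups overlapped through the single nucleus of WT replicate 1. The log2 fold change was -3.84 ± 0.59 (edgeR adjusted p = 0.021), and without WT replicate 2, which gave 115 of its 155 UMIs, it was 0.18 (edgeR adjusted p = 0.97). Nor did Cnksr3 pass without Cnp-/- replicate 1 (edgeR adjusted p = 0.85) or without 5xFAD replicate 1 (edgeR adjusted p = 0.21). Mobp, Kctd8 and Patj came next (edgeR adjusted p = 0.055 each), followed by Pde1c (0.061). Mobp was at 51.2, 216, 102 and 158 CPM without 5xFAD and at 41.5, 18, 49.5 and 33.5 CPM with it. The groups did not overlap, as in 168 of the 4845 genes tested (3.47%). However, 51.2 CPM in WT replicate 1 was 1 UMI, as was 18 CPM in 5xFAD replicate 2. The gap from 51.2 to 49.5 CPM is thus within counting error. The direction turned for Mobp without cluster 25 (from -1.95 to 0.43) and for Pde1c without WT replicate 2 (from -2.22 to 2.22).

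For Cnp loss the 5 genes with the lowest p were Dpf3, Necab1, Peli2, Gm42418 and Mertk (edgeR adjusted p = 0.32 each), of which Gm42418 turned direction without WT replicate 2 and Dpf3 without 5xFAD replicate 1. Necab1, a neuronal calcium-binding protein, was at 102, 52.6, 122 and 89.9 CPM with Cnp and at 235, 207, 140 and 235 CPM without it. For the interaction they were Pld5, Tafa2, Clvs2, Nxn and Sema5a (edgeR adjusted p = 0.12 to 0.20). App ranged from 342 to 532 CPM over the 8 libraries and its log2 fold change with 5xFAD was -0.23 ± 0.28 (edgeR adjusted p = 0.96). Reads were counted against the mouse genome, so App here is the count at the mouse gene and no measure of the human transgene. Cnp was at 102, 51.4, 15.8 and 0 CPM in the Prox1 nuclei of WT and 5xFAD replicates 1 and 2, and at 7.59, 19.7, 0 and 2.58 CPM in those of the Cnp-/- and Cnp-/-;5xFAD libraries. These groups overlap and rest on 0 to 45 UMIs per library. Thy1 was at 0, 8, 15.2 and 9.85 CPM without 5xFAD and at 32.6, 0, 41.3 and 18.1 CPM with it. None of the listed gene groups had a member that passed in these 3 contrasts.

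The last comparison asked whether Cnp loss or 5xFAD changed a gene by a different amount in Prox1 nuclei than in other Slc17a7 neurons. For Cnp loss 8 of 17795 genes passed (0.045%), 3 with the more positive change in Prox1 nuclei and 5 with the more negative one. For 5xFAD 18 of 17795 passed (0.101%), 11 more positive and 7 more negative. With DESeq2 size factors the splits were 1 to 5 and 6 to 7, and without WT replicate 1 the counts were 24 and 55. Without WT replicate 2 the only WT profile left was a single nucleus. The median difference over all genes then moved from -0.083 to 0.73 for Cnp loss and from 0.077 to 3.29 for 5xFAD. Directions in those fits are therefore shifted for genes at large. Rspo2, a Wnt-enhancing secreted protein (chr15:43020794-43170826), was at 0, 10.3, 49.3 and 0 CPM in Prox1 nuclei without 5xFAD and at 75, 72, 182 and 72.2 CPM with it. In other Slc17a7 neurons it was at 49.1, 74.9, 97.5 and 71.8 CPM without and at 84.9, 105, 65.1 and 48.1 CPM with it. The groups of Prox1 nuclei did not overlap, but the 0 UMIs of WT replicate 1, a single nucleus, allowed up to 154 CPM. This limit lies above the 75, 72 and 72.2 CPM found with 5xFAD, so counting error could close the gap. The difference of log2 fold changes was 2.61 ± 0.44 (edgeR adjusted p = 4.6e-05). Rspo2 did not pass without WT replicate 2 (edgeR adjusted p = 0.39) or without 5xFAD replicate 1 (edgeR adjusted p = 0.35).

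Etl4 was at 512, 468, 1036 and 995 CPM in Prox1 nuclei without 5xFAD and at 1476, 3184, 1766 and 1447 CPM with it (1.58 ± 0.30, edgeR adjusted p = 0.001). Its level in other Slc17a7 neurons lay between 1277 and 1498 CPM in all 8 libraries. It did not pass without 5xFAD replicate 2 (edgeR adjusted p = 0.11) or without Cnp-/-;5xFAD replicate 1 (edgeR adjusted p = 0.064). Among the oligodendrocyte markers Mobp and Mag had the more negative change, with Mobp at -1.78 ± 0.37 (edgeR adjusted p = 0.0047). Mobp did not pass without WT replicate 2, Cnp-/- replicate 2, 5xFAD replicate 1 or Cnp-/-;5xFAD replicate 2 (edgeR adjusted p = 0.14 to 1). The 8 oligodendrocyte markers in Prox1 nuclei summed to 256 to 2170 CPM in the 4 libraries without 5xFAD and to 198 to 776 CPM in the 4 with it. These ranges overlap. Mobp and Mag are part of the sum, so it gives no separate evidence on their calls. Of the other listed genes Hs3st4, Nr4a2 and Grm8 had the more positive change and Reln the more negative one. Among the 8 genes of the Cnp contrast was Cnp itself (-3.13 ± 0.72, edgeR adjusted p = 0.032). DESeq2 called 0 genes in that contrast, and edgeR called 0 without Cnp-/-;5xFAD replicate 2. None of the 8 had been called within Prox1 nuclei alone, and of the 18 only Cnksr3 had.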

How the data were processed

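Nuclei from 8 brain hemisphere libraries (2 per genotype) were sequenced by the authors with a 10x 3′ protocol. Per the labels and methods, reads were counted with Cell Ranger 6.1.2 against mm10 and background RNA was removed with CellBender 0.2.0, after which nuclei were filtered on genes and UMIs, clustered in Seurat 4.1.1 and clusters of undefined identity were removed by the authors. Whether doublets were removed and intronic reads counted is not given in the sources used here. The values used are the deposited UMI counts per gene and nucleus, with the authors' cell type and cluster annotation. The deposited percent of mitochondrial UMIs had a median of 0 in Prox1 nuclei and in other Slc17a7 neurons. The microglia tables were not used here, and some genes are not reported here. Numbers of 12 clusters are not in the annotation.

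The cut-offs were applied to the counts as deposited, and counts were summed per library and class. CPM divide by all UMIs of the summed nuclei. The members, gene lists and tests were chosen with earlier results of these data known. Genes were kept with edgeR's filterByExpr, scaled by TMM and tested with edgeR 4.0.16's quasi-likelihood test (R 4.3.3), with Benjamini-Hochberg adjustment over all genes tested. Genotype contrasts used 1 mean per genotype over the 8 profiles of Prox1 nuclei. Class contrasts used 16 profiles with library as a block. DESeq2 1.42.0 was an alternative. Shares were compared by two-sided exact permutation over 70 relabellings. Genes were named where adjusted p was under 0.05, groups did not overlap (or all 8 libraries agreed) and the higher group reached 20 CPM, at most 12 per direction by fold change, and otherwise the 5 lowest p, together with Cnp, App, Thy1 and members of the gene lists. The scripts were tested on simulated data. Positions are from GENCODE's mm10 annotation. Intervals and floors cover counting error only.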

Additional observations from a re-analysis of the deposited data

Results flagged for a closer look

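In 36 groups of 4 libraries checked for a library far from the others, 2 had one, near the 1 in 20 that chance flags. Cnp in the Prox1 nuclei of 5xFAD replicate 1 was 15.8 CPM, against 0 to 2.58 CPM in the other 3 libraries with 5xFAD, 2 of which lacked Cnp by genotype. Dpf3 in Cnp-/-;5xFAD replicate 1 was at 0 CPM (0 UMIs over 3 nuclei), against 19.7 to 23.2 CPM in the other 3 Cnp-/- libraries. A count of 0 allows up to 24.8 CPM in that library, so it cannot be told from the others.

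The effect of Cnp loss differed between Prox1 nuclei and other Slc17a7 neurons for 8 genes by the test of the difference itself. The 5 with the lowest p were Hbb-bs (-11.69 on the log2 scale), Kcnip1 (1.77), Olfm3 (-1.60), Gm10754 (1.87) and Sema5a (-2.07). Hbb-bs, a haemoglobin chain, was present in the Prox1 nuclei of WT replicate 2 (64 CPM) and 5xFAD replicate 1 (36.5 CPM) and at 0 in those of the other 6 libraries, so its fitted value is no measure of size. The effect of 5xFAD differed for 18 genes. Those that passed every condition for being named were Nr4a2 (2.78), Rspo2 (2.61), Rxfp1 (2.35), Fhl2 (1.84), Hs3st2 (1.80), Etl4 (1.58), Mobp (-1.78) and Kctd8 (-1.70). Etl4 passed under 9 of 12 alternatives. For the other 7 DESeq2 gave no adjusted p, and of 11 alternatives Rspo2 passed under 8, Mobp under 7, Nr4a2 and Rxfp1 under 6, Hs3st2 and Kctd8 under 5 and Fhl2 under 1. In the Cnp contrast, of 12 alternatives, Hbb-bs and Kcnip1 passed under 6, Olfm3 under 5, Sema5a under 4 and Gm10754 under 3. Directions turned without WT replicate 2 for Sema5a (4.15) and Olfm3 (0.13). The median over all genes was 0.73 in that fit, so Olfm3 still lay below it. At 5 or more Prox1 UMIs directions turned for Kcnip1 (-5.39) and, in the 5xFAD contrast, Nr4a2 (-2.64).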

How the results depend on the processing

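The genotype contrasts within Prox1 nuclei rest on libraries of 1 to 32 nuclei, and their counts of called genes are unstable. The 0 genes of Cnp loss became 20 with no filter, 1 at 2 or more Prox1 UMIs, 13 at 5 or more, 5 with 3 or more granule marker UMIs and 3 without cluster 25, and ranged from 0 to 41 when a library was left out. The 1 gene of 5xFAD became 4 with DESeq2 size factors, 24 with no filter, 2 with DESeq2, 5 and 18 at 2 and 5 or more Prox1 UMIs, 6 with 3 or more granule marker UMIs, 0 with 1 nucleus per library and 0 without cluster 25, and ranged from 0 to 58. The 0 genes of the interaction became 14 with no filter, 1 with DESeq2, 8 at 5 or more Prox1 UMIs and 2 with 3 or more granule marker UMIs, and ranged from 0 to 25. At 5 or more Prox1 UMIs 3 libraries had 0 nuclei, which left 3 of the 4 genotypes with 1 library each, assumed to vary like the rest. Fits with at most 2 oligodendrocyte UMIs could not be made for these contrasts, since 4 libraries had no such nucleus. Same-numbered libraries deviated together with correlations from -0.0453 to 0.135 over 6 pairs, so the numbers were not taken to pair the libraries. With the replicate number as a block the 3 counts were 0, 1 and 0, and the comparison of classes with genotype and replicate block in place of the library block gave 1407.

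The 1280 genes between classes became 2201 with no filter (1228 of the 1280 among them), 788 without cluster 25, 386 with at most 2 oligodendrocyte UMIs and 127 against matched nuclei, and ranged from 692 to 1306 without a library. Fewer genes were tested in the matched comparison (6520). DESeq2 called 932, of which 825 were among the 1280. Of 441 values of the named genes under alternatives, 412 kept direction and call, 29 lost the call and 0 turned. These genes had been chosen for passing with the same direction in all 8 libraries. Fits without a library could therefore hardly turn them, and values that could not be tested are not in the count. Against matched nuclei 12 of these genes could be tested and 8 passed. Of the 401 values of the genes named in the other comparisons, 243 kept both, 78 lost the call, 71 gained one and 9 turned.

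The 8 genes whose Cnp effect differed between classes became 3 with no filter, 0 with DESeq2 and 4 at 5 or more Prox1 UMIs against 0, and ranged from 0 to 24. The 18 of 5xFAD became 3 at 5 or more Prox1 UMIs and ranged from 6 to 55, and DESeq2 called 12, all more positive, of which 2 were shared. Directions turned for Kcnip1 (-5.39) and Nr4a2 (-2.64) at 5 or more Prox1 UMIs, and for Mobp with 5xFAD without cluster 25 (0.43). Without WT replicate 2 they turned for Gm42418, Cnksr3, Pde1c, Olfm3 and Sema5a. In those fits the median over all genes was 0.157 for Cnp loss and 0.153 for 5xFAD. For the class difference with Cnp loss it was 0.73. With 1 library left out Gm42418 ranged from -6.77 to 2.53, Cnksr3 from -5.85 to 0.18, Pde1c from -5.05 to 2.22, Olfm3 from -2.08 to 0.13 and Sema5a from -2.77 to 4.15. Dpf3 ranged from -5.09 to 1.06 and turned without 5xFAD replicate 1. The causes were not tested.

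The difference in share kept its sign for Cnp loss (-0.527 to -0.0501 percentage points without a library) and ranged from -0.209 to 0.272 for 5xFAD, and with a replicate block p was 0.5 and 0.833.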
